A study of Mus musculus with 5 samples.

Results

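The comparison described here is the last interval of a pooled CRISPR knockout screen in mouse embryonic stem (ES) cells, day 12 against day 8. Every gene of the guide library was included: 1682 of 1682 genes, through 14443 of their 16820 guides. A guide was kept when it had at least 30 reads in both libraries of the plasmid pool, a filter that used no cell library. Between 4 and 10 guides were kept per gene, with a median of 9. The reference inside each library was 893 of 1000 non-targeting guides, which match no intended gene. Counts were scaled to CPM, which divides each count by the total of its library, the change of a guide was the log2 ratio of its CPM plus 1 at day 12 to its CPM plus 1 at day 8, and a gene was summarised by the median over its guides. Each time point was 1 library, so no test between the time points could be run and no p-value is given. An SD given with a gene is the spread over its guides, which share both libraries and are not replicates, and every change is one of share in the pool.

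The day 8 and day 12 libraries both came from ES cells whose genotype label is Ainv15(iNgn2 Tubb3::GFP), transduced with a lentiviral library of guides against transcription factors and other nuclear regulators, and kept in ES cell medium with Zeocin. Zeocin is an antibiotic of the bleomycin family that cuts DNA, used here to retain transduced cells; the treatment label itself reads as untreated for all libraries. The labels do not say whether the days are serial samples of 1 culture, and the count of days starts at transduction in the titles but at selection in the protocol, so the days serve as names of time points. A day 5 library of the same cells and 2 libraries of the plasmid pool are used for earlier intervals. Expression was not measured, so the ES cell label was not checked against marker genes.

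In a pooled screen each cell carries a guide that steers the Cas9 nuclease to a gene. When loss of the gene slows division or causes death, its guides take a shrinking share of the reads, and when loss gives an advantage in culture, they take a growing share. Guides against genes that all cells need are lost early, so a late interval is measured in a population from which many such cells are already gone. Mouse ES cells are held in a self-renewing state by a network of transcription factors around Oct4 (Pou5f1), Sox2 and Nanog, and chromatin enzymes set how readily the cells leave it.

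The guides below are examples from genes described here, not a list of the largest changes of single guides. They are shown 5′ to 3′ as in the deposited library, with the 12 bases next to the PAM (the seed, which tolerates mismatches least) in capitals. Guides of a gene are numbered in library order among those kept. The first set belongs to the 5 genes that rose at least 2-fold, and was picked after the values were seen.
Kmt2d guide 4: cggcaccaTCATTCGCAATG
Kmt2d guide 7: ccggcgaaTCCCCAAAGGAG
Kdm5b guide 1: agactgggATCTGTAAGGTG
Kdm5b guide 8: cttacagaTCCCAGTCTGCT
Kdm5b guide 9: cgagcagaCTGGGATCTGTA
Ncoa3 guide 10: catctcgaTTCACCACAAAC
Prdm14 guide 5: atattcttCACGTCCATGAG
Srsf6 guide 5: agcacgctTCATGTCGGAGT

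Kmt2d guide 4 went from 60 reads at day 8 to 368 at day 12, and Kmt2d guide 7 from 149 to 494. Kdm5b guides 1, 8 and 9 went from 90 to 264, from 269 to 599 and from 144 to 301 reads. Of the 10 Kdm5b guides, 5 share a run of at least 12 bases with another guide of the gene on either strand, so guides of a gene are not always separate target sites. Ncoa3 guide 10 went from 66 to 236 reads, Prdm14 guide 5 from 102 to 277 and Srsf6 guide 5 from 105 to 240. All of these guides had a larger share of the reads at day 12.

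The second set belongs to genes that fell, and to Zbtb11, a gene of the study's title, in which 1 guide went against the others.
Ttf2 guide 2: gcatgtccAGAAGGAAAAGG
Ttf2 guide 6: cgatggtgGCGTAAGTCAGT
Nr0b1 guide 1: cagggtctTCAACAGGCCAG
Nr0b1 guide 7: tcatccggATGTGCTCAGTA
Kat7 guide 4: atgagcccCAGGTCTGACAG
Trp53bp1 guide 8: acttccggGTTCGACAGTGC
Zbtb14 guide 2: acagacaaACGGCCTGTCAG
Zbtb14 guide 9: tgtgtgtgGCTCCTGCACCA
Zbtb11 guide 2: tgtcaagcGGAAGATCCGCA
Zbtb11 guide 7: gcaccgagGGCAATGTCAAG

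Ttf2 guides 2 and 6 went from 20 to 2 and from 16 to 1 reads. Nr0b1 guide 1 went from 26 to 4 reads and Nr0b1 guide 7 from 96 to 30. Kat7 guide 4 went from 36 to 8 reads and Trp53bp1 guide 8 from 54 to 12. Zbtb14 guide 2 went from 158 to 51 reads and Zbtb14 guide 9 from 146 to 33, the best covered of these falls. Zbtb11 guide 2 went from 7 to 33 reads while Zbtb11 guide 7 went from 6 to 1. The genomic position each guide cuts was not analysed here, so the intervals of the genes are given instead, on GRCm38.p6 (mm10) from RefSeq.

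The day 8 library held 1082489 reads and the day 12 library 1008492. A kept guide to a gene had a median of 52 reads at day 8 and 46 at day 12, and a non-targeting guide 76 and 70. Guides to genes with fewer than 10 reads made up 5.46% at day 8 and 9.04% at day 12. Of 14443 kept guides to genes, 49 were at 0 reads at day 8 and 93 at day 12; 29 were at 0 in both. The best covered of the 64 guides that went to 0 had 14 reads at day 8, so a count of 0 at day 12 came from guides that were already rare.

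The non-targeting guides had a median log2 ratio of -0.03 with an SD of 0.40 over 893 guides, and 5% of them lay below -0.68 and 5% above 0.59. Reads alone would give them an SD of 0.269, so they scattered more than counting error. Their ratio moved by 0.0033 per G or C base in the guide, against 0.126 from plasmid to day 5. The 1682 gene medians had a median of -0.09 and an SD of 0.28, and 61.0% of them lay below the non-targeting median. Among single guides, 1.01% of the non-targeting ones lay at least 1 log2 unit below their median and 1.01% at least 1 above. Among guides to genes, 5.86% lay that far below and 2.42% that far above.

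A gene is called lower or higher here when its median lay at least 1 log2 unit, that is 2-fold, from the non-targeting median: below -1.03 or above 0.97. By this rule 11 genes fell (0.654% of the 1682 genes) and 5 rose (0.297%). At 0.5 log2 units, that is 1.41-fold, 123 genes fell (7.31%) and 23 rose (1.37%). These counts depend on the treatment of low reads: with a pseudocount of 5 CPM in place of 1, only Zbtb14 fell 2-fold and 57 genes fell 1.41-fold, while 5 and 22 rose. With only guides of at least 100 plasmid reads, 29 genes fell and 5 rose 2-fold, and 142 fell and 48 rose 1.41-fold. The 11 genes that fell 2-fold took 0.245% of the reads at day 8 and 0.119% at day 12. The 5 that rose took 0.481% and 1.10%. Just inside the 2-fold rule lay Sfpq at -1.08 and Srsf6 at 1.01; just outside lay Snapc3 at -1.01 and Spen and Kmt2c at 0.92.

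**Figure D1:**
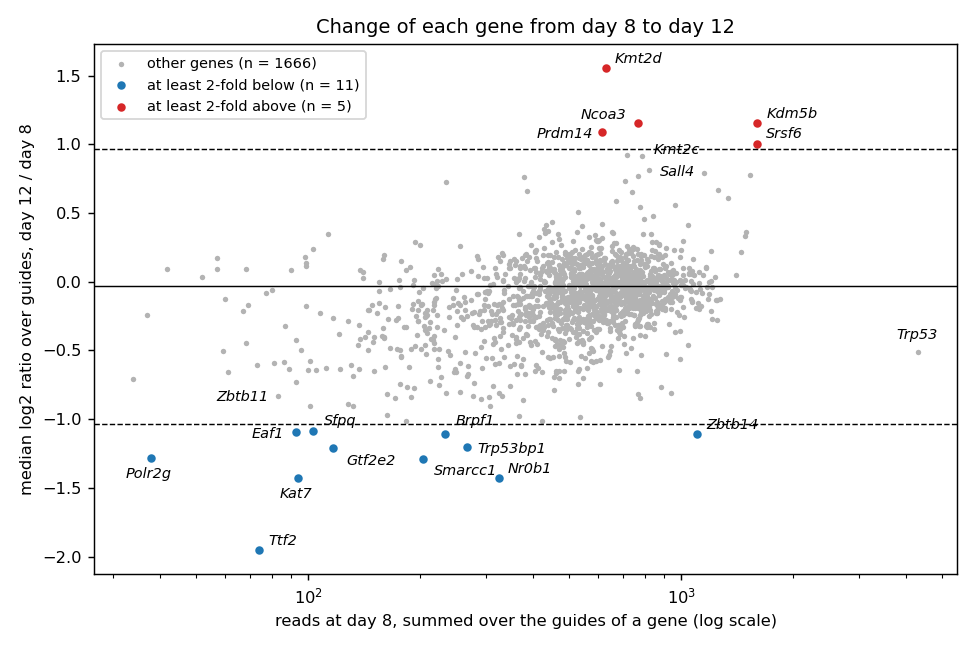
Median log2 ratio of day 12 to day 8 over the guides of each of 1682 genes (vertical axis) against the reads of the gene summed over its guides at day 8 (horizontal axis, log scale). The solid line is the non-targeting median of -0.03 and the dashed lines are 2-fold below and above it; the 5 genes that rose (red) had 612 to 1602 reads at day 8, the 11 that fell (blue) 38 to 1103.

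Kmt2d rose most. Its product, KMT2D (MLL4), is a histone H3 lysine 4 monomethyltransferase of enhancers. Kmt2d (chr15:98831669-98874077) had 507 reads at day 5, 628 at day 8 and 2002 at day 12, summed over 9 guides. Its median log2 ratio was 1.55 with an SD of 0.50 over guides, and all 9 guides lay above the 95th percentile of the non-targeting guides, from 0.89 to 2.70. The summed reads rose 3.42-fold, with an exact (Clopper-Pearson) 95% interval of 3.13 to 3.75; this interval and those that follow cover counting error only, since reads from PCR without molecular identifiers are not independent molecules. Among the guides of the gene, guide 4 took 24.7% of its day 12 reads.

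Kmt2c and Ncoa6 encode the paralogous methyltransferase and a coactivator subunit of the same enhancer complexes. Kmt2c went from 787 to 1344 reads with a median of 0.92, and Ncoa6 from 1336 to 2150 with 0.61; all 9 and all 10 of their guides lay above the non-targeting median. Both passed the 1.41-fold rule and neither the 2-fold rule. In the same list of KMT2 and SETD1 complexes, Kmt2b, the methyltransferase of bivalent promoters, had a median of -0.89 (SD 1.08, 8 guides, 128 to 51 reads), which passed 2-fold in 4 of 12 alternatives and reached -1.72 with at least 100 plasmid reads. Cxxc1, a CpG-binding subunit of the SETD1 complexes, had -0.77 (192 to 110 reads). The list thus held members on both sides: of 10 genes, 3 rose (30%, beside 1.37% of all genes) and 2 fell (20%, beside 7.31%) at 1.41-fold. Its median was -0.22, beside -0.09 over all genes.

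Kdm5b (chr1:134560178-134632878), a demethylase of histone H3 lysine 4, had 1032 reads at day 5, 1602 at day 8 and 3296 at day 12. Its median was 1.15, and the 10 guides kept close together, from 0.71 to 1.64 with an SD of 0.24. The summed reads rose 2.21-fold (2.08 to 2.35). Its X-linked relative Kdm5c lay on the other side at -0.70 (546 to 326 reads, 9 of 10 guides below the non-targeting median), as did the CpG-island demethylases Kdm2a at -0.81 and Kdm2b at -0.76, Phf8 at -0.57, and Jarid2, a family member without enzyme activity that belongs to polycomb complexes, at -0.64. Of 14 histone lysine demethylases, Kdm5b alone rose (7.14%, beside 1.37% of all genes) and those 5 fell at 1.41-fold (35.7%, beside 7.31%). The list median was -0.22.

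Ncoa3 (chr2:165992637-166073242), a steroid receptor coactivator, had 483 reads at day 5, 767 at day 8 and 1710 at day 12. All 10 guides lay between 0.72 and 1.92, and the median was 1.15 (SD 0.36). The summed reads rose 2.39-fold (2.20 to 2.61). Its paralogs Ncoa1 and Ncoa2 had medians of -0.11 and 0.21, inside both rules. Rarg, a retinoic acid receptor, went from 1530 to 2510 reads with a median of 0.78 and all 9 guides above the non-targeting median, while Rara, Rarb, Rxra, Rxrb and Rxrg lay at 0.18, 0.05, 0.33, 0.08 and -0.20. Of 6 retinoid receptors only Rarg passed the 1.41-fold rule (16.7% higher, beside 1.37% of all genes). The list median was 0.13, beside -0.09 over all genes. Nrip1, a corepressor of nuclear receptors, was the lowest of 15 coregulators at -0.61 (373 to 223 reads).

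Prdm14 (chr1:13113428-13127163), a DNA-binding regulator that protects naive pluripotency, had 472 reads at day 5, 612 at day 8 and 1203 at day 12. Its 7 guides gave a median of 1.09 (SD 0.39), 6 of them above the 95th non-targeting percentile, and its reads rose 2.11-fold (1.91 to 2.33). Cbfa2t2, the corepressor that PRDM14 recruits, rose past 1.41-fold with a median of 0.74 (708 to 1304 reads), although 2 of its 10 guides lay below the non-targeting median. Tfap2c rose past the same rule at 0.77 (768 to 1094 reads) and Sall4, a zinc finger factor of the ES cell network, at 0.81 (822 to 1694 reads), with 8 of 8 and 9 of 9 guides above. All 4 genes of the list of PRDM14 and its partners therefore rose past 1.41-fold (100%, beside 1.37% of all genes). Past 2-fold lay 1 of them, beside 0.297% of all genes. The list median was 0.79, beside -0.09 over all genes. The list is short and was drawn up with earlier results known, so its count is a description.

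The wider list of core and naive pluripotency genes split into opposite groups. Of its 21 genes, 6 rose at 1.41-fold (28.6%, beside 1.37% of all genes): the 4 above, Nr5a2 at 0.76 (379 to 558 reads) and Tbx3 at 0.65 (738 to 1069 reads). Another 5 fell (23.8%, beside 7.31%; 2 with a pseudocount of 5 CPM): Nr0b1 at -1.43, Klf2 at -0.83 (331 to 190 reads, 7 of 7 guides below), Klf5 at -0.58, Sox2 at -0.55 (300 to 221 reads) and Nanog at -0.55 (178 to 129 reads, 6 of 10 guides below). The list median was -0.13. This list was also drawn up with earlier results known, so its shares are a description. Pou5f1, the gene of Oct4, had a median of 0.04 over 5 guides and only 52 reads at day 8 and 65 at day 12. With only guides of at least 20 reads over both days its median was 1.18, past the 2-fold rule. That filter uses the compared reads themselves: a guide rare at day 8 is kept only if it is high at day 12. The value is therefore not independent of the change. The Pou5f1 medians in the earlier intervals were -1.40 from plasmid to day 5 and -1.48 from day 5 to day 8.

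Nr0b1 (chrX:86191775-86195947) encodes DAX1, an orphan nuclear receptor that lacks a typical DNA-binding domain and is abundant in ES cells. It had 474 reads at day 5, 325 at day 8 and 119 at day 12. All 7 guides lay below the non-targeting median, 6 of them below its 5th percentile, and the gene median was -1.43 (SD 0.61). The summed CPM at day 12 was 39.3% of that at day 8 (31.6 to 48.6).

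Among the genes of RNA processing, Srsf6 (chr2:162931508-162937121), a serine and arginine rich splicing factor, had 1009 reads at day 5, 1601 at day 8 and 2928 at day 12. Its median of 1.01 (SD 0.44, 8 guides) was the closest to the 2-fold rule of the genes that rose, and 1 guide was at -0.09. Srsf5, a factor of the same family, had a median of -0.81 with all 9 guides below the non-targeting median (765 to 427 reads). Spen and Rbm15, related RNA-binding proteins, had medians of 0.92 (718 to 1177 reads) and 0.56 (965 to 1455 reads), with every guide of both above it. Among 13 splicing factors, 2 rose (15.4%, beside 1.37% of all genes) and 4 fell (30.8%, beside 7.31%) at 1.41-fold. With a pseudocount of 5 CPM 1 fell. The list median was -0.24.

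Other genes past the 1.41-fold rule upward were Ezh2, the methyltransferase of polycomb complex PRC2, at 0.79 (1155 to 1809 reads, 10 of 10 guides), Arid5b at 0.73, the ETS-domain repressor Erf at 0.66 (1252 to 2007 reads), Zbtb2 at 0.66 (387 to 567 reads, 9 of 9 guides), the ubiquitin ligase gene Rlim at 0.59, the deacetylase gene Hdac8 at 0.54, Nfrkb at 0.51 and the histone chaperone gene Hira at 0.48. Suz12, a core PRC2 subunit, had a median of 0.36, inside the rule, and the PRC2 accessory genes Jarid2 and Aebp2 fell past it at -0.64 and -0.54. Jarid2 kept that call in 8 and Aebp2 in 6 of 12 alternatives, and Ezh2 kept its own in 12. Without the plasmid filter 0 genes of the PRC2 list were lower. All genes named here, like the others named between the 1.41-fold and 2-fold rules, were chosen after their values were seen.

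**Figure D2:**
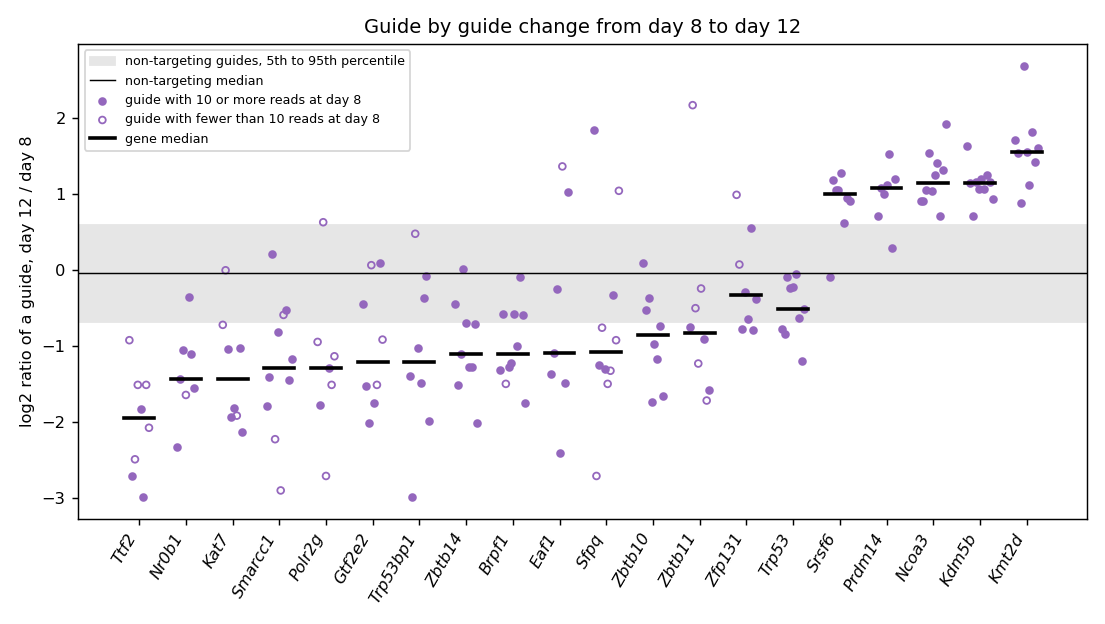
Log2 ratio of day 12 to day 8 of each kept guide (vertical axis) for the 11 genes that fell 2-fold, the study genes Zbtb10, Zbtb11 and Zfp131, Trp53, and the 5 genes that rose 2-fold (horizontal axis). Open points are guides with fewer than 10 reads at day 8, bars are gene medians and the grey band is the 5th to 95th percentile of the non-targeting guides; Kdm5b guides have an SD of 0.24 and Sfpq guides of 1.31.

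The lowest gene was Ttf2 (chr3:100938860-100969700), a factor that releases RNA polymerase II from DNA. It had 276 reads at day 5, 74 at day 8 and 9 at day 12 over 8 guides, 3 of them at 0 at day 12. All 8 guides lay below the 5th non-targeting percentile, the median was -1.95 (SD 0.70), and the summed CPM at day 12 was 13.1% of that at day 8 (5.74 to 26.1). With 5 guides under 10 reads at day 8, its size depends on the pseudocount: with 5 CPM in place of 1 the median was -0.996 and Ttf2 missed the 2-fold rule.

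Other genes of the transcription machinery past 2-fold rested on few reads. Polr2g, an RNA polymerase II subunit, had 66 reads at day 5, 38 at day 8 and 10 at day 12, with a median of -1.28 (SD 1.01, 7 guides). Gtf2e2, a TFIIE subunit, had 171, 117 and 56 reads and a median of -1.21 (SD 0.83, 8 guides, 2 of them above the non-targeting median). Eaf1, an ELL-associated elongation factor, had 173, 93 and 60 reads and a median of -1.10 (SD 1.38), with 5 of 7 guides below. These genes passed the rule in 8 of 11, 5 of 12 and 8 of 12 alternative settings.

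The other subunits and factors of transcription are described by list, beside 7.31% of all genes lower at 1.41-fold and a median of -0.09. Among 11 RNA polymerase II subunits, 1 fell 2-fold and 2 fell 1.41-fold (18.2%), and the list median was -0.12, beside -0.45 from day 5 to day 8 and -1.63 from plasmid to day 5. Their guides had a median of 19 reads at day 5, 13 at day 8 and 9 at day 12, so falls in the last interval were measured on what remained. Among 18 general initiation factors, 5 fell 1.41-fold (27.8%, median -0.28), with Gtf2e2 lowest and Gtf2b highest at 0.35. Of 17 Mediator genes 2 fell (11.8%, median -0.33), and of 10 TFIID subunits none passed either rule (median -0.14). Of 22 elongation and termination factors 5 fell 1.41-fold (22.7%, median -0.22), among them Nelfb, a pausing factor, at -0.98 (367 to 251 reads) and Supt4a, a subunit of the DSIF elongation factor, at -0.84 (778 to 500 reads); Eloa was highest at 0.35. Of 26 polymerase I and III factors, 6 fell 1.41-fold (23.1%, median -0.23), with Polr1d lowest at -0.84, a value that ran from -0.86 to 0.06 over the alternatives. With a pseudocount of 5 CPM the counts were 1 of the polymerase II subunits, 1 of the initiation factors, 1 of the Mediator genes, 4 of the elongation factors and 1 of the polymerase I and III factors. Across these lists no gene rose past 1.41-fold with a pseudocount of 1 CPM and at least 30 plasmid reads.

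Kat7 (chr11:95271853-95310246) encodes an acetyltransferase of histone H3 and H4, and Brpf1 (chr6:113306863-113324862) a scaffold protein that binds KAT6 and KAT7. Kat7 had 201 reads at day 5, 94 at day 8 and 25 at day 12, a median of -1.43 (SD 0.75, 8 guides) and a day 12 level of 28.5% of day 8 (17.6 to 44.8); with a pseudocount of 5 CPM the median was -0.68 and the 2-fold call was lost. Brpf1 had 358, 233 and 118 reads and a median of -1.11 (SD 0.51), with all 10 guides below the non-targeting median and day 12 at 54.4% of day 8 (43.2 to 68.1). Kat6a and Brpf3, relatives of these genes, had medians of -0.37 and -0.19. Of 26 genes of acetyltransferase complexes, these 2 fell 2-fold and 6 fell 1.41-fold (23.1%, beside 7.31% of all genes). The others were Ep300 at -0.81, Supt3 at -0.75, Yeats4 at -0.74 and Yeats2 at -0.63. The list median was -0.22 and its highest member was Ing4 at 0.37.

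Smarcc1, the core scaffold of the ES cell SWI/SNF (BAF) remodeller, had 398 reads at day 5, 203 at day 8 and 90 at day 12, a median of -1.29 (SD 0.90), and 9 of 10 guides below the non-targeting median. Its ATPase partner Smarca4 lay at -0.79 (455 to 319 reads) and Arid1a at -0.55 (635 to 412 reads). With Smarcc1 these were the 3 of 17 SWI/SNF genes past 1.41-fold (17.6%, beside 7.31% of all genes). Dpf2, an accessory subunit, was the highest at 0.36. The list median was -0.19.

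Genes of DNA damage signalling and repair had a list median of -0.59 over 13 genes, beside -0.09 over all genes. That median was -0.26 with a pseudocount of 5 CPM, -0.33 without the plasmid filter and -0.35 with at least 100 plasmid reads. Trp53bp1 (chr2:121194835-121296354), which encodes the double-strand break protein 53BP1, had 369 reads at day 5, 266 at day 8 and 129 at day 12; its median was -1.20 (SD 1.11), and 7 of 8 guides lay below the non-targeting median; with at least 100 plasmid reads the median was -0.55 and the 2-fold call was lost. Past 1.41-fold lay 7 of the 13 (53.8%, beside 7.31% of all genes; 4 with a pseudocount of 5 CPM), among them Trp53bp1, the endonuclease gene Apex1 at -0.74, the damage kinase gene Atm at -0.73 (279 to 139 reads, 9 of 9 guides below), the Ku subunit genes Xrcc6 and Xrcc5 both at -0.67, and Parp1 at -0.59. Ercc6 was the highest at 0.09. The list was compiled with results of these data in view, and Zeocin was present in both libraries, so the interval has no Zeocin-free arm to set beside it.

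Trp53, the gene of the tumour suppressor p53, had the most reads of any gene at day 8. It had 3521 reads at day 5, 4320 at day 8 and 3044 at day 12 over 9 guides, all of them below the non-targeting median. Its median was -0.51 (SD 0.39), which missed the 1.41-fold rule, and the summed CPM at day 12 was 75.6% of that at day 8 (72.2 to 79.2). From plasmid to day 5 its median was 2.18, and it was the 1 gene that rose 2-fold there. The related Trp63 and Trp73 stood at 0.00 and 0.10.

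Zbtb14 (chr17:69383175-69390752), a BTB zinc finger factor that binds GC-rich DNA, was unlike the other genes that fell in its reads. It had 829 at day 5, 1103 at day 8 and 509 at day 12, none of its 9 guides was under 10 reads at day 8, and 8 of the 9 lay below the non-targeting median. Its median was -1.11 (SD 0.61) and the summed CPM at day 12 was 49.5% of that at day 8 (44.5 to 55.1). It was also the 1 gene of the 11 that lay above the non-targeting median from day 5 to day 8, at 0.33 against 0.11. Of 30 genes of the ZBTB family, it alone fell 2-fold. Zbtb10, Zbtb11 and Zbtb17 fell and Zbtb2 rose past 1.41-fold, and the family median was -0.08. With Zbtb14, 13.3% of the family fell past 1.41-fold, beside 7.31% of all genes.

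Zbtb11 and Zfp131 are named in the title of the study, and Zbtb10 is a relative that it also knocked out. Zbtb10 (chr3:9250567-9285333) had 389 reads at day 5, 291 at day 8 and 151 at day 12, and a median of -0.85 (SD 0.63) with 7 of 8 guides below the non-targeting median. Zbtb11 (chr16:55971437-56008913) had 213, 83 and 66 reads and a median of -0.83 (SD 1.23). Of its 8 guides, 7 lay below the non-targeting median, but guide 2 held 50.0% of the day 12 reads. The summed ratio was 0.85 (0.61 to 1.19), and 0.47 without that guide. The gene median was 0.97 with only guides of at least 100 plasmid reads, and 0.71 with only guides of at least 20 reads summed over both days. Guide 2 passed the second of these filters only through its day 12 reads. Zfp131 (chr13:119765186-119791477) had 328, 278 and 191 reads and a median of -0.33 (SD 0.65, 5 of 8 guides below), inside the 1.41-fold rule; its summed ratio was 0.74 (0.61 to 0.89). No member of the 3 passed 2-fold in this interval.

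Sfpq, which encodes a paraspeckle and splicing protein, closed the list of 11 with 202 reads at day 5, 103 at day 8 and 74 at day 12. Its guides disagreed (SD 1.31, from -2.71 to 1.84), and the counting interval of its summed ratio of 0.77 (0.56 to 1.05) includes 1. With only guides of at least 100 plasmid reads its median was 0.27. Nono, whose product pairs with SFPQ, had a steadier median of -0.55 (SD 0.42), with 8 of 8 guides below the non-targeting median and 487 to 318 reads.

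Some genes fell past 1.41-fold on well covered guides without reaching 2-fold. Vhl, the ubiquitin ligase subunit that marks HIF factors for degradation, stood at 883 reads at day 5 and at day 8 and at 483 at day 12, with a median of -0.76 (SD 0.32) and 10 of 10 guides below the non-targeting median. Phf12, a corepressor subunit, had 677, 941 and 549 reads, a median of -0.81 (SD 0.37) and 9 of 9 guides below. Gatad2b, a NuRD subunit, had 547, 530 and 308 reads and a median of -0.74 with the smallest spread of these, an SD of 0.20. Dnmt1, the maintenance DNA methyltransferase, had 520, 405 and 247 reads and a median of -0.65 with 8 of 8 guides below. Its SD over guides was 0.49, above the median SD of 0.46 over all genes. In all 4 the fall in the last interval was measured on guides that were still well represented.

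Max, the partner of MYC proteins, had 290 reads at day 5, 96 at day 8 and 65 at day 12. Its median was -0.50 (SD 1.08, 9 guides) after -1.88 from day 5 to day 8. With at least 100 plasmid reads the median was -1.68, past 2-fold. With at least 20 reads over both days, a filter that uses the compared reads, it was 0.20. Max was the lowest of 12 genes of the MYC, MAX and MLX network, whose median was -0.02. Polycomb PRC1 genes had a median of -0.13, and 3 of 17 fell past 1.41-fold (17.6%, beside 7.31% of all genes). These were Pcgf6 at -0.84, E2f6 at -0.82 and Kdm2b at -0.76, all members of variant PRC1 complexes. Over the alternatives Pcgf6 ran from -0.86 to 0.05 and E2f6 from -0.85 to -0.18, while Kdm2b kept its call in all 12. Of 9 replicative helicase and licensing genes, Mcm2, Mcm4 and Mcm3 fell past 1.41-fold (33.3%, beside 7.31% of all genes). The 9 genes had a median of -0.41, on a median of -0.85 from day 5 to day 8. Of their guides 30.1% had fewer than 10 reads at day 8, with a pseudocount of 5 CPM 0 of the 9 passed, and Mcm2 ran from -1.99 to 0.13 over the alternatives. Of 15 genes linked to exit from naive pluripotency, 4 fell past 1.41-fold (26.7%, beside 7.31% of all genes), among them Etv5, Jarid2 and Zfp281, and none rose. The count was 2 with a pseudocount of 5 CPM, and the list median was -0.20. Lists of NuRD (13 genes, 2 lower, 15.4%), ISWI, CHD and INO80 remodellers (14 genes, 3 lower, 21.4%), E2F and DREAM factors (15 genes, 3 lower, 20%), H3K9 and DNA methylation (13 genes, 1 lower, 7.69%), deacetylases and corepressors (26 genes, 1 lower, 3.85%, and 2 higher, 7.69%) and ETS factors (25 genes, 1 lower, 4%, and 1 higher, 4%) had medians between -0.28 and -0.09. Over all genes 7.31% were lower and 1.37% higher. The 6 SNAPc and Integrator genes and the 6 CCR4-NOT genes had medians of -0.16 and -0.14 with 1 lower each (16.7%), Snapc3 and Cnot8. Of the list of CTCF, YY1 and cohesin genes only Ctcf, Yy1, Zfp143 and Ctcfl were in the library, so no cohesin gene of it was measured. Ctcf and Yy1 fell among these 4 (50%, median -0.29), and 0 did with a pseudocount of 5 CPM. None of 3 NF-Y genes (median -0.44) and of 3 genes of mitochondrial gene control (median -0.41) passed either rule.

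Regulators of other lineages gave the flat background of the interval. The lists of Hox clusters (37 genes), neural lineage (34), mesoderm and muscle lineage (19), endoderm lineage (19) and blood lineage (23) had medians of -0.05, -0.01, -0.13, -0.06 and -0.01. No gene of these lists passed 1.41-fold in either direction, beside 7.31% of all genes lower and 1.37% higher. The median over all genes was -0.09.

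**Figure D3:**
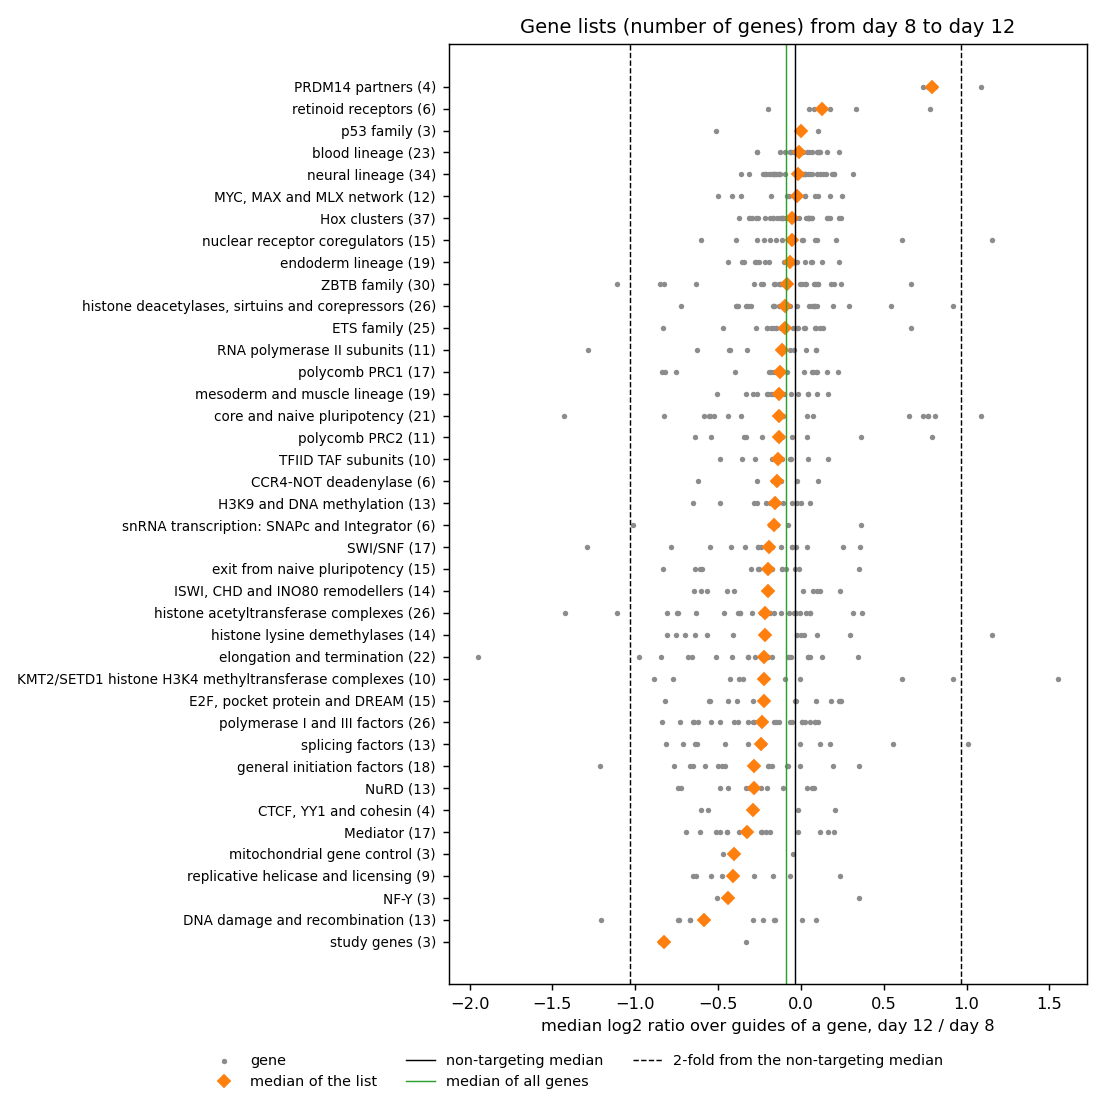
Median log2 ratio of day 12 to day 8 of each gene (grey points, horizontal axis) in 40 gene lists (vertical axis, number of genes in brackets), with the list median as a diamond. Solid lines are the non-targeting median of -0.03 (black) and the median of all genes of -0.09 (green), and dashed lines are 2-fold from the non-targeting median; PRDM14 and its partners have the highest list median at 0.79.

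The earlier intervals share libraries with the last one (day 8 is the denominator here and the numerator of the interval before), so their values are set side by side and no agreement is drawn from them. From plasmid to day 5, 220 genes (13.1%) lay 2-fold below and 1 (0.0595%) above the non-targeting median of 0.40; from day 5 to day 8, 60 (3.57%) lay below and 0 (0%) above that of 0.11; in the last interval these counts were 11 and 5. The last interval was thus the one with the fewest falls and the most rises past 2-fold. The 11 genes that fell in it had a group median of -0.77 from plasmid to day 5, -0.82 from day 5 to day 8 and -1.21 from day 8 to day 12, beside non-targeting medians of 0.40, 0.11 and -0.03. Set against those, the first interval was about as low as the last, and the genes were picked on the last. All 11 lay below the non-targeting median in the first interval, as did 95.7% of all genes. In the second, 10 lay below it, beside 76.8% of all genes, and 4 passed 2-fold, beside 3.57%.

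The 5 genes that rose had group medians of 0.09, 0.56 and 1.15 in the 3 intervals, beside the same non-targeting medians, and were likewise picked on the last. In the first, 2 lay above the non-targeting median and 3 below it (Kmt2d, Ncoa3 and Prdm14), where 95.7% of all genes lay below. In the second all 5 lay above it, as did 388 of all 1682 genes, and none passed 2-fold. Their share of all reads was 0.281% in the plasmid pool, 0.330% at day 5, 0.481% at day 8 and 1.10% at day 12. Kmt2d had medians of -0.18, 0.36 and 1.55 and Ncoa3 of -0.28, 0.64 and 1.15. Kdm5b had 0.49, 0.56 and 1.15, Prdm14 0.09, 0.27 and 1.09, and Srsf6 0.43, 0.69 and 1.01. The largest of the 3 values was that of the last interval in each of the 5 genes.

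**Figure D4:**
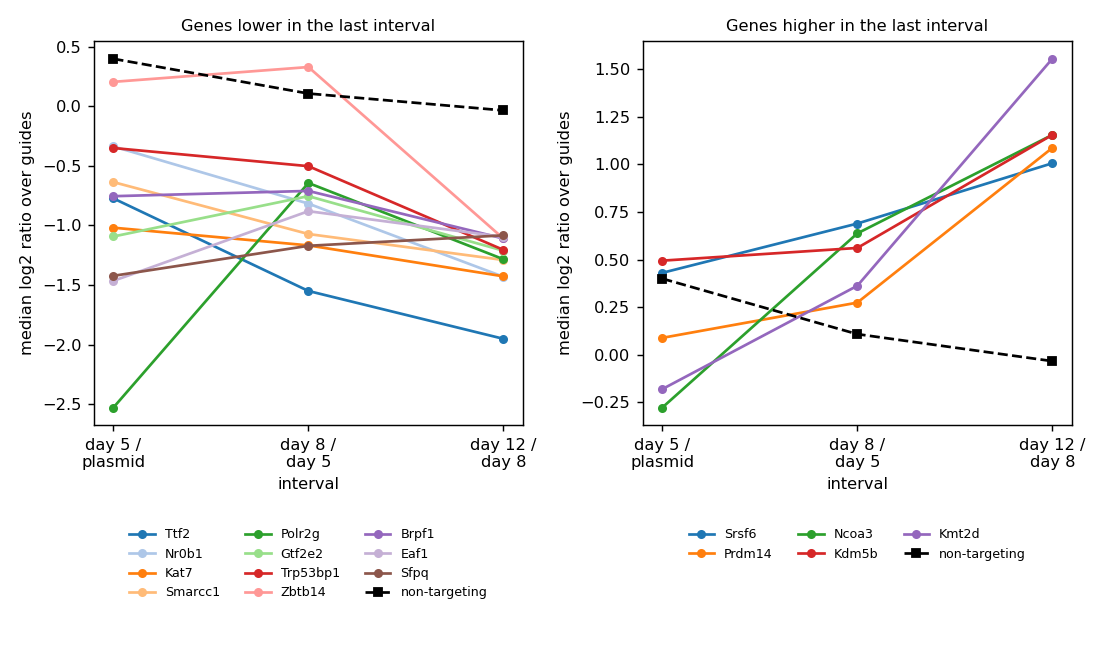
Median log2 ratio over guides (vertical axis) in the 3 successive intervals (horizontal axis) for the 11 genes that fell 2-fold from day 8 to day 12 (left) and the 5 that rose (right), with the non-targeting median as a dashed line. The non-targeting median goes from 0.40 to 0.11 to -0.03, Zbtb14 lies above it from day 5 to day 8 and at -1.11 in the last interval, and all 5 rising genes lie between 1.01 and 1.55 at the end.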

How the data were processed

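The values are raw read counts per guide as the authors deposited them, per the file headers; all are whole numbers and library totals differ. The submitters' processing notes name cutadapt, Bowtie, featureCounts and mm10; for versions and for how guide reads were matched, the sources used here give nothing. The members and gene lists were chosen with earlier results of these data known.

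Counts were divided by the library total (CPM) with Python 3.11.15, pandas 2.3.3 and numpy 2.4.6; the pseudocount was 1 CPM and the plasmid filter 30 reads in both plasmid libraries. Counting intervals at 95% are exact (scipy 1.17.1). The calculation was tested on simulated data. Symbols came from RefSeq, 1661 directly and 21 by older names.

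Genes were named by rule: up to 12 at each end past 2-fold with at least 4 guides and 75% of them on that side, 11 fixed genes, and the ends of the 13 of 40 lists with a gene past 2-fold. This gave 35 genes; Eaf1 and those between the rules were added after their values were seen. Some genes are not reported here. Alternatives covered scaling (TMM from edgeR 4.0.16, DESeq2 1.42.0 size factors), centring, pseudocount, guide filters, gene summary, base composition and the fold.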

Additional observations from a re-analysis of the deposited data

Results flagged for a closer look

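Guides left out by the plasmid filter did not enter the main values above, only alternatives with a looser filter. They are other guides to the same genes, read in the same day 8 and day 12 libraries. For the 5 genes that rose 2-fold there were 6 such guides, in Prdm14, Srsf6 and Kmt2d. Their median log2 ratio was 0.64, all 6 lay above the non-targeting median, and their reads went from 202 at day 8 to 406 at day 12. The 3 left-out guides of Prdm14 had a median of 1.34 (105 to 274 reads), while the 1 of Kmt2d stayed at 6 reads on both days. For the 11 genes that fell there were 13 left-out guides in 8 genes, with a median of -0.92, but only 8 lay below the non-targeting median and their reads went from 86 to 73. Their median at day 8 was 4 reads. The 107 left-out non-targeting guides had a median of -0.06 with an SD of 0.63. No test was run, since each side is 1 library.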

How the results depend on the processing

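Of the alternatives tried one at a time, those that moved a count of genes past the fold by over 1.5 times were these. With a pseudocount of 5 CPM, 1 gene (Zbtb14) was lower in place of 11. With at least 100 plasmid reads, 29 were lower, over 1582 genes and 4452 guides, and 6 of the 11 were among them. At 0.5 log2 units 123 were lower and 23 higher, and at 1.5 units 1 was lower (Ttf2) and 1 higher (Kmt2d). Elsewhere 8 to 13 were lower and 4 to 7 higher. TMM and DESeq2 scaling moved the median of all genes by 0.093 and 0.105, and the same 11 and 5 genes were called. Scaling moves genes and non-targeting guides nearly together, so these calls could hardly change. Centring on guides to genes gave 10 lower and 7 higher.

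Over 12 alternatives of scaling, pseudocount, filter, summary and base composition, Kmt2d, Kdm5b and Ncoa3 passed 2-fold in all 12, Prdm14 in 11 and Srsf6 in 7. Ttf2, Nr0b1, Kat7 and Zbtb14 passed in 11, Smarcc1 in 10, Trp53bp1 in 9, Sfpq in 8 and Brpf1 in 7. With at least 100 plasmid reads Sfpq reversed to 0.27. Without plasmid replicate 1 the same 15336 guides were kept, so the counts of 11 and 5 were fixed. Without replicate 2 the counts were 11 and 4, with 9 of the 11 shared. The 12 alternatives thus include settings, this filter and the scalings, in which a call could hardly change. Another of them, at least 20 reads over both days, uses the compared reads themselves. The causes were not tested, beyond the fewer guides that a stricter filter leaves.

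No paired analysis was possible because each time point is 1 library with no shared replicate numbers. Depth limits the falls: 9.04% of the guides to genes had fewer than 10 reads at day 12, and the genes that fell 2-fold had a median of 117 reads at day 8, against 562 over all genes.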

Other observations

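Single guides far from the other guides of their gene were looked for on the rising side only. Among 13655 guides to genes with at least 10 reads at day 8, 10 rose at least 4-fold and 70 fell at least 4-fold. Among 893 non-targeting guides 0 did either, but with rises this rare 893 guides are too few for a contrast. The 70 that fell were not compared with the other guides of their genes. Of the 10 that rose, 1 belonged to Kmt2d. The other 9 were each in a gene whose median stayed within 1.41-fold of the non-targeting median. A Zbtb39 guide went from 31 to 248 reads while the other guides of that gene had a median log2 ratio of 0.06. A Sirt4 guide went from 54 to 348 reads beside a median of -0.09, a Plag1 guide from 77 to 431 beside 0.08, an Sp7 guide from 52 to 287 beside -0.31 and a Pax9 guide from 55 to 278 beside 0.17. The remaining 4 were in Srebf1 (75 to 335 reads), Cnot6l (30 to 142), Hoxc12 (21 to 103) and Tardbp (25 to 103). These guides were picked by their values, and the gene median keeps 1 such guide from deciding a gene.

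The ASC-1 complex repairs alkylated DNA and works on stalled ribosomes. Of its genes, Trip4 was in the list of nuclear receptor coregulators, at -0.26 and inside both rules. Ascc1, Ascc2 and Ascc3 were in no list. Ascc2 had 266 reads at day 8 and 157 at day 12 with a median log2 ratio of -0.69 (SD 1.23, 8 of 9 guides below the non-targeting median), and Ascc3 105 and 58 reads with -0.64 (SD 0.41, 6 of 6 guides below). Ascc1 had -0.11. The helicase gene Brip1, also outside the lists, had -0.70 (7 of 9 guides below). Srebf2, a regulator of sterol synthesis, had -0.97 (163 to 76 reads, 6 of 7 guides below). All were chosen after their values were seen.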
